A study of Mus musculus with 30 samples.

Results

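The chemokine receptor CXCR4, on which endoderm cells were sorted in this study, was described together with 8 genes of surface receptors and secreted ligands: its ligand gene Cxcl12, the second CXCL12 receptor gene Ackr3, the receptor tyrosine kinase gene Kit with its ligand gene Kitl, the platelet-derived growth factor pair Pdgfra and Pdgfa, the VEGF receptor gene Kdr, and Trh, which encodes the precursor of thyrotropin-releasing hormone. These 9 genes were taken by name from the 29555 gene identifiers of the gene tables, and all 9 passed the filter on low counts in both tables. Of the 158917 peaks in the peak table with endoderm, 68 lay within 10 kb of a member. Of the 181059 peaks in the table of epiblast stem cells alone, 70 did.

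RNA-seq and ATAC-seq, which counts transposase insertions in open chromatin, were done on mouse epiblast stem cells (EpiSC) and on definitive endoderm (DE) derived from them. EpiSC grew on feeder cells in N2B27 with Fgf2, ActivinA and the Wnt inhibitor NVP-TNKS656 at passages 5 to 10. DE was made from B6 (C57BL/6) EpiSC with CHIR99201, so spelled in the labels, plus ActivinA for 16 h and ActivinA plus LDN193189 for 24 h (the labels also give 46 h in all), and its CXCR4-positive cells were taken with magnetic beads. RNA libraries covered B6 EpiSC (n = 5), B6 DE (n = 4), EpiSC of PWK (PWK/PhJ, n = 3), B6129F1 (a B6.129 F1 cross, n = 3) and DBA (DBA/2J, 1 library). ATAC libraries covered B6 EpiSC (n = 4), B6 DE (n = 4), PWK EpiSC (n = 2) and DBA EpiSC (1 library). EpiSC were lifted from the feeders with collagenase, so some feeder RNA can remain in the EpiSC libraries. The labels do not say that the numbered replicates are separate derivations or animals, and the p-values measure the spread between these samples.

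CXCR4 is a G protein-coupled receptor that guides migrating cells along CXCL12, and it marks definitive endoderm as that layer forms in the gastrulating embryo. ACKR3 binds the same ligand and removes it from the surroundings without G protein signaling. KIT and PDGFRA are receptor tyrosine kinases whose ligands are KITL (stem cell factor) and PDGFA, and KDR is the main signaling receptor for VEGFA in blood vessel precursors. Kit and Pdgfra proteins are used as surface markers in the sorting of endoderm and mesoderm, and Pdgfra, Kit and Kdr lie in this order on mouse chromosome 5.

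All 12 genes of a definitive endoderm marker list, Cxcr4 itself among them, were called higher in DE, for example Sox17 (0.628 to 9.52 CPM, counts per 1000000 of the library's TMM-scaled size, in B6 EpiSC and 1128 to 1462 in DE). Total RNA counts were 25084505 to 29947841 in B6 EpiSC, 22829536 and 25410448 in DE replicates 2 and 44, and 59995667 and 66563933 in DE replicates 4 and 51. The ATAC totals in the table with endoderm were 3751526 to 9311622. DE replicate 2 kept the most Pou5f1, a pluripotency factor, at 37.8 CPM, against 982 CPM in the lowest B6 EpiSC library. The list of 10 primed pluripotency genes as a whole fell far less and overlapped. Its summed level was 4192 to 5706 CPM in B6 EpiSC and 3337 to 4228 in DE. The CPM of 15 feeder fibroblast markers (Col1a1, Thy1, Postn and others) summed to 144, 1555, 638, 1527 and 3516 in B6 EpiSC replicates 1, 2, 4, 44 and 51, and to 369, 147, 126 and 159 in DE replicates 2, 4, 44 and 51. In bulk libraries, fewer cells of a type and less RNA per cell cannot be told apart. Of these 15, 12 were called lower in DE and none higher, beside 30.6% lower and 31.5% higher among all genes tested. In DE, 7 of 10 primed pluripotency genes were lower and 2 higher; of the tested genes of other lists, 2 of 7 streak and mesoderm genes were higher and 3 lower, 3 of 6 visceral endoderm genes higher and 1 lower, 2 of 2 germ cell genes higher, and 3 of 5 neural genes lower.

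Of the 9 members, 6 were higher in B6 DE than in B6 EpiSC (Cxcr4, Ackr3, Kit, Pdgfra, Pdgfa and Trh), 2 were lower (Cxcl12 and Kdr) and Kitl did not pass the threshold, set at an adjusted p of 0.05 (edgeR's quasi-likelihood test, 14085 genes). Among all genes tested, 31.5% were called higher and 30.6% lower, so a call in itself is common in this comparison. The median log2 change was 2.40 over the members, which is the value of Cxcr4, the gene sorted on, and -0.01 over all genes tested. The members were chosen with earlier results of these data known, so these medians describe them and are no test. The plot of the 9 genes by library shows how far the groups lie apart.

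**Figure D1:**
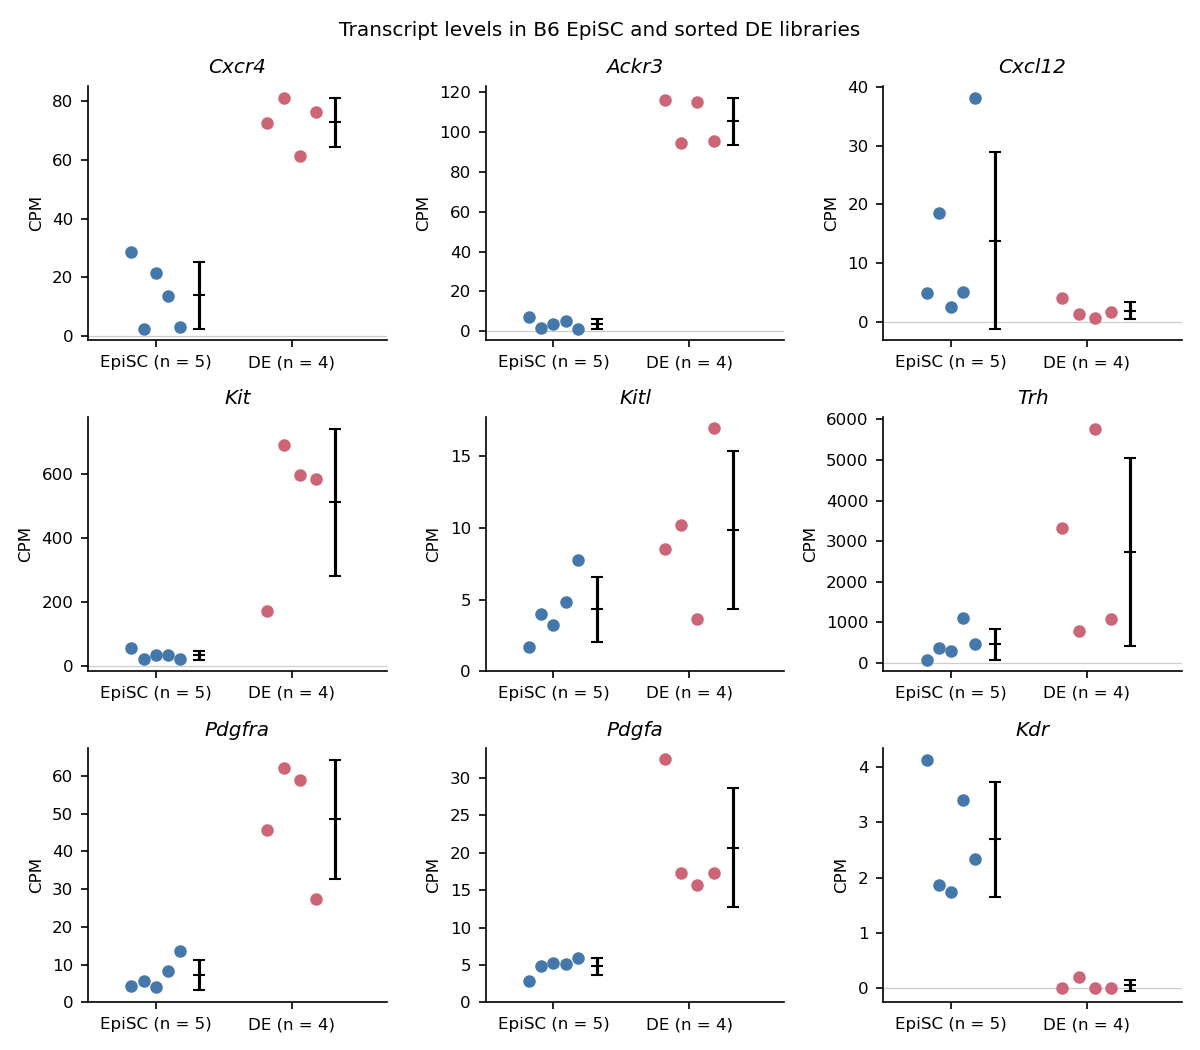
Transcript level in CPM of the 9 genes in the 5 B6 EpiSC libraries and 4 B6 DE libraries (points, 1 per library, with replicate numbers rising from left to right; the bar is the mean ± SD). Cxcr4, Ackr3, Kit, Pdgfra, Pdgfa and Kdr do not overlap between the groups, while Cxcl12, Kitl and Trh do. The share of all genes without overlap was not computed, and 31.5% of all genes tested were called higher and 30.6% lower.

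Cxcr4 stood at 28.6, 2.51, 21.4, 13.6 and 3.03 CPM in B6 EpiSC replicates 1, 2, 4, 44 and 51. In DE replicates 2, 4, 44 and 51 it was 72.6, 81.2, 61.2 and 76.3 CPM. Every DE library lay above every EpiSC library, and the level was even among DE libraries (72.8 ± 8.50 CPM, SD, n = 4) but uneven among EpiSC libraries (13.8 ± 11.4, n = 5). The log2 change was 2.40 (SE 0.63, adjusted p = 0.0070). The cells of the DE libraries had been selected on CXCR4 protein, so this difference was measured behind a gate on the gene's own product, and unsorted DE cells were not analysed here. All DE values, of RNA and ATAC, come from such selected cells. The effects of sorting and of differentiation therefore cannot be told apart for any gene or peak, the feeder markers included.

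Ackr3, the scavenging receptor for the same ligand, was 7.28, 1.45, 3.65, 5.11 and 1.29 CPM in EpiSC replicates 1, 2, 4, 44 and 51, and 116, 94.6, 115 and 95.8 CPM in DE replicates 2, 4, 44 and 51. The groups lay far apart, with a log2 change of 4.81 (SE 0.49, adjusted p = 1.81e-05). Leaving out any 1 library gave between 4.58 and 5.19.

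Cxcl12, the ligand, moved the other way. Its level was 4.86, 18.6, 2.45, 4.98 and 38.2 CPM in EpiSC replicates 1, 2, 4, 44 and 51 and 4.02, 1.36, 0.587 and 1.61 CPM in DE replicates 2, 4, 44 and 51. The groups overlapped through EpiSC replicate 4 and DE replicate 2, and the log2 change was -2.88 (SE 0.88, adjusted p = 0.0158). It was -2.06 without EpiSC replicate 51 and -3.51 without DE replicate 2, and the call held with any 1 library left out (adjusted p = 0.0084 to 0.043). The highest values were in EpiSC replicates 2 and 51, whose feeder markers summed to 1555 and 3516 CPM, while replicate 44, with 1527 CPM, had 4.98 CPM of Cxcl12, and the part of feeder RNA in the difference was not tested. At the lower feeder sums, EpiSC replicate 1 (144 CPM) had 4.86 CPM of Cxcl12, above all 4 DE libraries, and EpiSC replicate 4 (638 CPM) had 2.45, below DE replicate 2 (369 CPM of feeder markers, 4.02 of Cxcl12). An unplanned fit kept only DE replicates 2 and 44, whose depth was near that of the EpiSC libraries. Its log2 change was -2.65 and the call was lost (adjusted p = 0.11).

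Of 21 genes of the CXCL12 axis, 15 were tested. The 6 called higher included Cxcr4 and Ackr3 and the 5 called lower included Cxcl12, beside 31.5% and 30.6% of all genes. The list's median log2 change was -0.30, beside -0.01 for all genes. Mif, which encodes another ligand of CXCR4, was 190 to 465 CPM in EpiSC and 847 to 3099 in DE (log2 change 1.96, SE 0.41, adjusted p = 0.0019). The arrestin genes Arrb1 and Arrb2, whose proteins end G protein signaling and carry receptors inward, fell. Arrb1 went from 93.7 to 133 CPM in EpiSC to 6.81 to 19.2 in DE (log2 change -3.22), and Arrb2 from 46.7 to 63.96 to 12.01 to 25.6 (-1.44). Rgs16, a brake on G protein signaling, rose by 1.20 on the log2 scale.

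Near Cxcr4, 5 of 6 tested peaks were called higher in DE and none lower. Among all 113870 peaks tested, 32.6% were called higher and 25.0% lower, shares to set beside the count near each gene below. A peak just inside the start site (chr1:128592188-128592280) rose, and a peak 3.3 kb upstream rose most. The promoter sequences of Cxcr4, Ackr3, Kit and Kdr are shown because these genes differ in what their start-site peaks did. Each is the 250 bases before the start site, from RefSeq (GRCm38.p6), with motif matches in capitals: Cxcr4 is chr1:128592300-128592549 on the minus strand, Ackr3 chr1:90203730-90203979 plus, Kit chr5:75574737-75574986 plus, and Kdr chr5:75978456-75978705 minus.
Cxcr4: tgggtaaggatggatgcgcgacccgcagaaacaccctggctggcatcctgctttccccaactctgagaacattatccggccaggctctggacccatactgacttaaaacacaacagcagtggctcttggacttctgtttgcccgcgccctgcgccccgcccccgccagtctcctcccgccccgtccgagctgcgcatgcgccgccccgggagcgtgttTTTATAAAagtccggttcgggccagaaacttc
Ackr3: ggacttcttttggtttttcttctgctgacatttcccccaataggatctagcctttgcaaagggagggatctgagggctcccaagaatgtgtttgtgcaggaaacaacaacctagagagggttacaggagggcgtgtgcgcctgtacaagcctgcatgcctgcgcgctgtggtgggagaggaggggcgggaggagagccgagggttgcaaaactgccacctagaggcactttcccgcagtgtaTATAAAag
Kit: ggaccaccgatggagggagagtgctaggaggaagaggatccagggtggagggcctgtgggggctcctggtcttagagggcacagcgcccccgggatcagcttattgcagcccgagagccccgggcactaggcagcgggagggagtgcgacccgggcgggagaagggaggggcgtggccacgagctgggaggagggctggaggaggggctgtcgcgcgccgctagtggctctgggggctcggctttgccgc
Kdr: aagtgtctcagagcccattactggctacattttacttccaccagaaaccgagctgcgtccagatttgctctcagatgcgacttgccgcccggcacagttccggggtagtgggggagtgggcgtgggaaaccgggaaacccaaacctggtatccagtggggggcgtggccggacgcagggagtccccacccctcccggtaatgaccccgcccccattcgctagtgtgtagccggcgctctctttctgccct

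The motifs searched on both strands were a GATA core (AGATAA), a SOX core (ACAAT), a FOX core (GTAAACA), a T-box core (GGTGTG), an octamer (ATGCAAAT), a hypoxia response core (ACGTG), a SMAD core (GTCTG) and a TATA core (TATAAA). The TATA core was found in Cxcr4, 30 to 25 bases before the start with an overlapping match on the other strand, in Ackr3, 8 to 3 bases before it, and in Kitl, 25 to 20 bases before it, and 12.4% of all 32851 promoter windows of that length hold it. None of the 8 motifs was found in Kit, Kdr or Trh. The other matches were a SOX core in Cxcl12 and Pdgfa (27.7% of all windows), a SMAD core in Kitl and Pdgfra (42.2%) and a T-box core in Pdgfa (16.3%). The GATA core occurs in 9.99% of windows, the FOX core in 3.17%, the octamer in 1.60% and the hypoxia core in 16.6%, and the members had none of these.

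The peak 3.3 kb upstream of Cxcr4 (chr1:128595527-128595706) had 0.960, 1.80, 0 and 0.620 CPM in EpiSC replicates 1, 4, 44 and 51 and 15.0, 14.8, 13.9 and 12.4 CPM in DE replicates 2, 4, 44 and 51. It was nearly closed in EpiSC and even across DE libraries (log2 change 3.80, SE 0.41, adjusted p = 1.40e-07). The start-site peak went from 0.510 to 1.80 CPM to 6.34 to 9.73 CPM (log2 change 2.58, SE 0.39, adjusted p = 9.47e-06). A second peak overlapping the promoter window, 0.3 kb upstream, stood at 8.91 to 15.8 CPM in EpiSC and 9.67 to 12.6 in DE and was not called (log2 change -0.14, adjusted p = 0.63). This uncalled peak covers 34 bases of the printed Cxcr4 sequence, while the called start-site peak lies outside that sequence. Peaks 1.1 kb and 9.9 kb upstream rose by 0.89 and 1.42, and one 13.6 kb from the start, beyond the gene's end, by 0.90 on the log2 scale. The call of that last peak was lost without EpiSC replicate 51 (log2 change 0.50, adjusted p = 0.13), DE replicate 2 (0.77, adjusted p = 0.057) or DE replicate 4 (0.79, adjusted p = 0.053).

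Ackr3 gained accessibility away from its start site. The peak 1.3 kb upstream (chr1:90202465-90202946) had 23.7, 26.1, 36.0 and 24.5 CPM in EpiSC replicates 1, 4, 44 and 51 and 74.3, 78.2, 72.6 and 57.7 in DE replicates 2, 4, 44 and 51. It was open in EpiSC already and rose in every DE library (log2 change 1.37, SE 0.15, adjusted p = 2.05e-07). A peak 16.5 kb from the start, past the gene's end (chr1:90220326-90220607), went from 0.775 to 5.41 CPM to 24.5 to 31.4 CPM (log2 change 3.21, SE 0.34). The peak at the start site was lower in each DE library than in each EpiSC library but was not called (log2 change -0.47, SE 0.23, adjusted p = 0.084), and it was called lower by DESeq2 (adjusted p = 0.047), with total library size as the scale (-0.68, adjusted p = 0.011), and without EpiSC replicate 1 (-0.61, adjusted p = 0.040), EpiSC replicate 4 (-0.59, 0.041), EpiSC replicate 51 (-0.59, 0.029) or DE replicate 4 (-0.63, 0.035).

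Cxcl12 lost accessibility within the gene, where 4 of 5 tested peaks were called lower and none higher; a sixth, 1.5 kb upstream, was not called. The peak 11.9 kb into the gene (chr6:117180227-117180705) had 16.6, 17.8, 16.6 and 27.1 CPM in EpiSC replicates 1, 4, 44 and 51 and 2.68, 2.47, 1.29 and 3.75 in DE replicates 2, 4, 44 and 51 (log2 change -3.01, SE 0.31, adjusted p = 8.12e-08). EpiSC replicate 51 was the highest in this peak, as it was in Cxcl12 transcript and in feeder markers. The 3 other EpiSC libraries, replicate 1 with the fewest feeder transcripts included, lay within 16.6 to 17.8 CPM. The feeder markers were measured in the RNA libraries of the same numbers, and the part of feeder cells in this peak was not tested. Peaks 10.1 and 1.0 kb into the gene fell by 2.23 and 1.71 on the log2 scale, and one 5.5 kb in fell by 0.57 at an adjusted p of 0.049, which was over the threshold without EpiSC replicate 44 (0.061), DE replicate 44 (0.060) or DE replicate 51 (0.068).

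**Figure D2:**
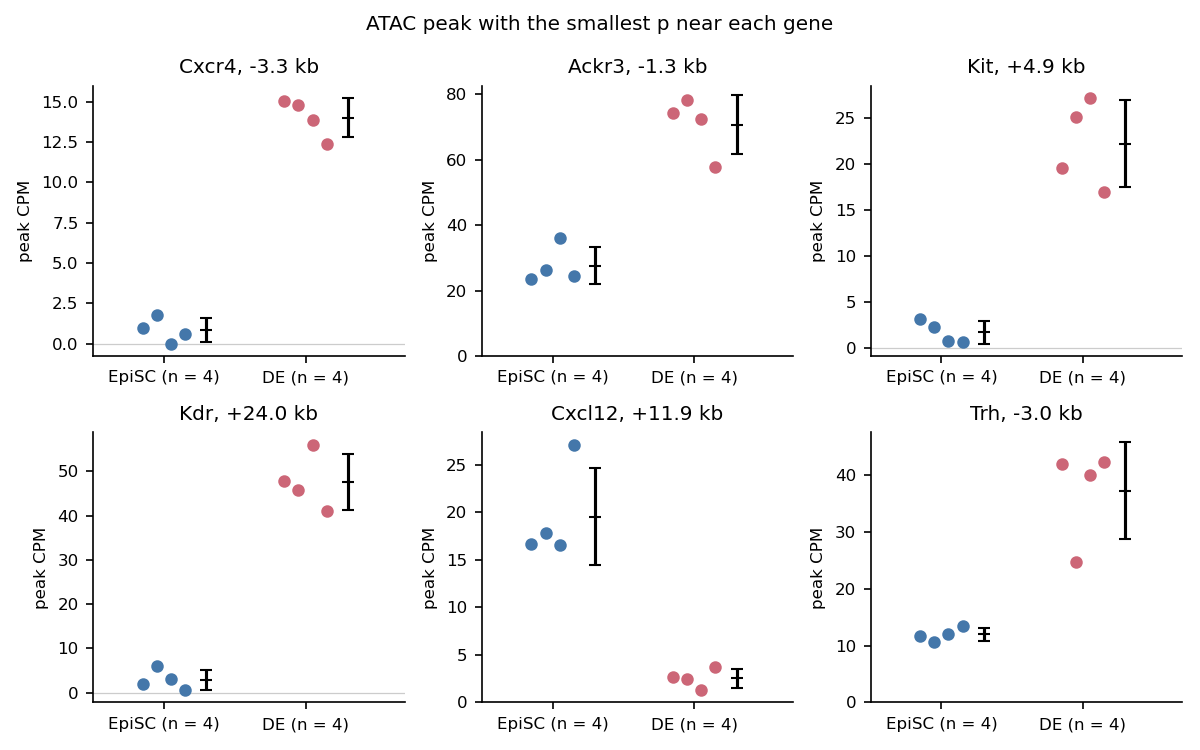
ATAC counts in CPM of the peak with the smallest p near 6 of the genes, in 4 B6 EpiSC and 4 B6 DE libraries (points; the bar is the mean ± SD; the distance in each title is from the start site). The Cxcr4, Ackr3, Kit, Kdr and Trh peaks are higher in each DE library and the Cxcl12 peak is lower in each.

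Kit transcript was 55.7, 20.2, 35.3, 34.0 and 21.1 CPM in EpiSC replicates 1, 2, 4, 44 and 51. In DE replicates 2, 4, 44 and 51 it was 173, 693, 599.8 and 584 CPM. DE replicate 2 was the low one, and it still lay above the highest EpiSC library (log2 change 3.95, SE 0.44, adjusted p = 3.21e-05). The cause of its lower level was not tested. Kitl, the ligand of KIT, was 1.67, 4.04, 3.25, 4.86 and 7.80 CPM in EpiSC replicates 1, 2, 4, 44 and 51 and 8.55, 10.2, 3.68 and 17.0 in DE replicates 2, 4, 44 and 51. The groups overlapped through DE replicate 44, and the difference was not called (log2 change 1.19, SE 0.50, adjusted p = 0.058). It was called without DE replicate 44 (1.46, adjusted p = 0.021) or EpiSC replicate 51 (1.51, adjusted p = 0.025), and by DESeq2 (1.13, adjusted p = 0.040). In 2 unplanned fits, Kitl was called with only the deep DE replicates 4 and 51 (1.65, adjusted p = 0.020), while replicates 2 and 44 alone gave 0.45 (adjusted p = 0.52).

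Of 17 genes of the KIT pathway, all were tested. Kit was 1 of 2 called higher and 8 were lower, beside 31.5% and 30.6% of all genes. The list's median log2 change stood at -0.78. The genes named by the rule on size and level, besides Kit, all fell. Ptpn11, whose phosphatase acts behind receptor tyrosine kinases, went from 208 to 243 CPM in EpiSC to 60.5 to 113 in DE (log2 change -1.38, adjusted p = 7.46e-05). Sos1, the exchange factor that activates RAS, fell by 1.43, the SRC-family kinase gene Fyn by 1.57 and the adaptor gene Sh2b3, an inhibitor of KIT signaling, by 1.19 on the log2 scale.

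Around Kit, 7 peaks were tested, 5 were called higher and none lower. The peak over its start site (chr5:75574557-75575158), which contains the whole printed promoter, had 17.8, 18.7, 21.2 and 17.5 CPM in EpiSC replicates 1, 4, 44 and 51 and 33.8, 40.6, 36.6 and 36.0 CPM in DE replicates 2, 4, 44 and 51. It was open in both states and higher in each DE library (log2 change 0.97, SE 0.15, adjusted p = 1.52e-05). A peak 4.9 kb into the gene (chr5:75579678-75580050) went from 0.620 to 3.20 CPM in EpiSC to 17.0 to 27.2 in DE (log2 change 3.60, SE 0.35, adjusted p = 4.25e-08). A peak 24.8 kb in rose by 1.28 on the log2 scale with overlapping groups, and its call was lost without EpiSC replicate 1 (1.13, adjusted p = 0.081), EpiSC replicate 51 (0.80, 0.12), DE replicate 4 (1.03, 0.11) or DE replicate 51 (0.92, 0.12).

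At Kitl, whose transcript was not called, most peaks of the gene body rose. Of 10 tested peaks near it, 7 were called higher and none lower. A peak 24.4 kb into the gene (chr10:100040132-100040304) had 0.640, 2.10, 0.510 and 0.465 CPM in EpiSC replicates 1, 4, 44 and 51 and 16.3, 10.4, 11.0 and 8.94 in DE replicates 2, 4, 44 and 51 (log2 change 3.44, SE 0.41, adjusted p = 6.30e-07). Peaks 2.1, 19.4 and 24.6 kb in rose by 3.33, 2.81 and 2.82 on the log2 scale. The start-site peak was at 12.2 to 20.4 CPM in EpiSC and 16.1 to 20.3 CPM in DE and was not called (log2 change 0.16, adjusted p = 0.52; -0.0542 with total library size as the scale).

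Pdgfra and its ligand gene Pdgfa both rose. Pdgfra was 4.32, 5.75, 4.04, 8.42 and 13.7 CPM in EpiSC replicates 1, 2, 4, 44 and 51 and 45.7, 62.2, 59.0 and 27.4 CPM in DE replicates 2, 4, 44 and 51. The groups did not overlap (log2 change 2.74, SE 0.39, adjusted p = 0.000174). Its highest EpiSC level, in replicate 51, went with the highest feeder sum (3516 CPM), beside sums of 126 to 369 CPM in DE, and the part of feeder RNA in the difference was not tested. Pdgfa was 2.92, 4.91, 5.27, 5.18 and 5.95 CPM in EpiSC replicates 1, 2, 4, 44 and 51 and 32.5, 17.3, 15.6 and 17.3 in DE replicates 2, 4, 44 and 51 (log2 change 2.09, SE 0.29, adjusted p = 0.000149). DE replicate 2 stood apart as the highest.

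Of 7 PDGF family genes tested, 2 were called higher and 2 lower, near the shares of all genes (31.5% and 30.6%). Pdgfc, another ligand for PDGFRA, fell from 4.80 to 7.21 CPM in EpiSC to 0.763 to 1.53 in DE (log2 change -2.38, adjusted p = 0.00024). Pdgfb fell by 2.08 with overlapping groups (adjusted p = 0.044). Pdgfrb, the second receptor and itself one of the feeder markers, was 1.63 to 33.0 CPM in EpiSC and 3.20 to 6.85 in DE and was not called (log2 change -1.23, adjusted p = 0.15); without EpiSC replicate 1 it was (-1.52, adjusted p = 0.045), and without EpiSC replicate 51 the change was -0.36 (adjusted p = 0.59).

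Near Pdgfra, 13 peaks were tested, 6 were called higher and none lower. The peak 7.9 kb before the start site (chr5:75144215-75144585), within the long noncoding RNA gene Gm19583, had 2.88, 1.502, 2.04 and 1.39 CPM in EpiSC replicates 1, 4, 44 and 51 and 20.8, 25.7, 18.7 and 15.0 in DE replicates 2, 4, 44 and 51 (log2 change 3.38, SE 0.30, adjusted p = 1.12e-08). Its neighbour 8.5 kb before the start went from 0 to 0.401 CPM to 3.17 to 10.7 CPM, and a peak 8.7 kb after the start from 0.775 to 2.20 to 7.01 to 13.7 CPM. No peak of this table overlapped the promoter windows of Pdgfra, Cxcl12 or Trh. The Pdgfra window lies inside the gene, whose annotated start is chr5:75151322. A peak over that annotated start (chr5:75151278-75151351) averaged 2.95 CPM in EpiSC and 3.43 in DE and was not called (log2 change 0.16, adjusted p = 0.82). A peak 43.8 kb into the gene rose by 1.86, and its call was lost without DE replicate 2 (1.45, adjusted p = 0.054).

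Near Pdgfa, 2 of 8 tested peaks were called higher and 1 lower. The peak 12.3 kb into the gene (chr5:138981841-138982035) went from 0.510 to 1.12 CPM in EpiSC to 7.78 to 9.22 in DE (log2 change 3.19, SE 0.38, adjusted p = 4.88e-07), and one past the gene's end rose by 2.28. Both peaks that overlap its promoter windows were not called (log2 changes 0.18 and 0.10, adjusted p = 0.66 and 0.78; -0.0347 and -0.118 with total library size as the scale).

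Kdr was the member with the lowest level in DE. It was 4.13, 1.87, 1.73, 3.40 and 2.33 CPM (109, 49, 48, 105 and 63 counts) in EpiSC replicates 1, 2, 4, 44 and 51. In DE it had 12 counts (0.199 CPM) in replicate 4 and 0 counts in replicates 2, 44 and 51. The fitted log2 change of all 9 libraries was -5.40 (SE 1.11, adjusted p = 0.00172); without DE replicate 4 it was -9.39, which depends on the prior count and is no bound. Of 14 endothelial and blood markers, 6 were tested, 3 were called higher (Gata1, Runx1 and Lmo2) and 1 lower (Tal1), beside 31.5% and 30.6% of all genes. The summed level of the 14 was 14.5 to 28.8 CPM in EpiSC and 61.8 to 130.2 CPM in DE. The endothelial genes Pecam1, Cdh5, Tie1, Emcn and Cldn5 stayed under 1 CPM in the B6 libraries, and Ptprc, Emcn, Tal1 and Hbb-bh1 were at 0 in all 4 DE libraries.

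The other VEGF receptor genes went in both directions. Of 11 VEGF family genes, all tested, 4 were called higher and 5 lower, Kdr included, beside 31.5% and 30.6% of all genes. The list's median log2 change stood at -0.79. Flt1, a receptor that binds VEGFA and can hold it away from KDR, was 69.8 to 217 CPM in EpiSC and 757 to 1236 in DE (log2 change 2.77, SE 0.35, adjusted p = 7.24e-05). The co-receptor gene Nrp1 rose from 6.14 to 28.7 to 30.7 to 96.0 CPM (log2 change 2.20), while Nrp2 fell from 9.90 to 25.8 to 0.929 to 4.26 CPM (-2.73; -3.35 without DE replicate 44). Flt4, the receptor of lymphatic vessels, fell from 13.5 to 25.8 CPM to 1.83 to 3.68 CPM (-2.76), and the semaphorin receptor gene Plxnd1 by 1.65 on the log2 scale. The ligand genes Vegfa and Vegfb rose by 1.13 and 0.91, and Vegfc, at 0.190 to 1.96 CPM in EpiSC, was not called (adjusted p = 0.33).

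While Kdr transcript was nearly lost, a peak inside the gene opened. The peak 24.0 kb from the start site (chr5:75954230-75954629) had 1.92, 6.01, 3.06 and 0.620 CPM in EpiSC replicates 1, 4, 44 and 51 and 47.8, 45.7, 56.0 and 40.9 CPM in DE replicates 2, 4, 44 and 51. The groups lay far apart (log2 change 3.94, SE 0.37, adjusted p = 3.41e-07). A peak 48.3 kb from the start, beyond the gene's end, went from 0 to 0.510 CPM to 3.46 to 7.01 CPM. The peak at the start site (chr5:75978368-75978588) stood at 4.34 to 8.16 CPM in EpiSC and 4.94 to 8.87 in DE and was not called (log2 change 0.23, SE 0.31, adjusted p = 0.54).

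In CPM, Trh had both the highest level of the 9 members and the widest spread among DE libraries. It was 79.9, 377, 305, 1099 and 472 CPM in EpiSC replicates 1, 2, 4, 44 and 51. In DE replicates 2 and 44 it was 3327 and 5770.3 CPM, and in DE replicates 4 and 51 it was 780.1 and 1087 CPM. DE replicates 4 and 51, the 2 deeply sequenced DE libraries, lay within the upper EpiSC range. The log2 change over all libraries was 2.55 (SE 0.73, adjusted p = 0.0115). Without DE replicate 44 it was 1.89 and without EpiSC replicate 44 it was 3.14. In an unplanned split it was 3.26 with only DE replicates 2 and 44, and 1.00 and not called with only replicates 4 and 51. This split parts the 2 high DE libraries from the 2 low ones, so its outcome was fixed by these values and is no test. The part of library depth in the difference between DE and EpiSC was not tested.

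Of 10 genes of the TRH system, 6 were tested, 2 were called higher and 2 lower, beside 31.5% and 30.6% of all genes. The receptor gene Trhr and Trhde, whose product degrades the hormone, were at 0 in all 4 DE libraries and at most 0.114 CPM in EpiSC. Pam, the enzyme that amidates the hormone's end, fell from 30.8 to 82.5 CPM to 10.3 to 23.3 CPM (log2 change -1.77, adjusted p = 0.0019). Near Trh, 1 of 4 tested peaks was called higher and 1 lower. The peak 3.0 kb upstream (chr6:92247366-92247992) was 11.7, 10.7, 11.99 and 13.5 CPM in EpiSC replicates 1, 4, 44 and 51 and 42.0, 24.7, 40.1 and 42.4 in DE replicates 2, 4, 44 and 51 (log2 change 1.64, SE 0.19, adjusted p = 4.47e-07). DE replicate 4 was the lowest DE library in both the peak and the transcript, while replicate 51, low in transcript, was the highest in the peak. The peak 1.9 kb upstream fell by 0.63 (adjusted p = 0.0038).

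Of 13 other surface proteins used or seen in endoderm, 12 were tested, 3 were called higher and 4 lower, beside 31.5% and 30.6% of all genes. The Wnt receptor genes Fzd8 (11.3 to 37.2 CPM in EpiSC, 496 to 917 in DE, log2 change 4.99) and Fzd5 (33.7 to 114 and 183 to 445 CPM, 1.97) rose, as did Cd24a, a glycoprotein used in sorting (111 to 412 and 1222 to 1420 CPM, 2.36). Itga6, the laminin receptor subunit, fell from 183 to 248 to 10.4 to 26.4 CPM (-3.45) and Prom1 by 1.20 on the log2 scale. Igfbp5, a secreted binding protein, fell by 2.75, from 22.3 to 144 CPM in EpiSC to 8.94 to 15.4 in DE.

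Over all members, 62 of the 68 peaks within 10 kb were tested, 30 were called higher and 6 lower. Of all 113870 peaks tested, 32.6% were called higher and 25.0% lower, that is 37108 and 28496 peaks. With total library size as the scale these were 33320 and 36674, and the median of all peaks moved from -0.01 to -0.22 on the log2 scale. Of 8 peaks that overlap a promoter window (250 bases before to 50 after a start site), 2 were called, the start-site peaks of Cxcr4 and Kit, and both were higher. Of 54 other tested peaks, 28 were higher and 6 lower. Within 2 kb of the genes 26 of 48 tested peaks were called, 20 higher and 6 lower, and within 50 kb 76 of 116, 63 higher and 13 lower.

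**Figure D3:**
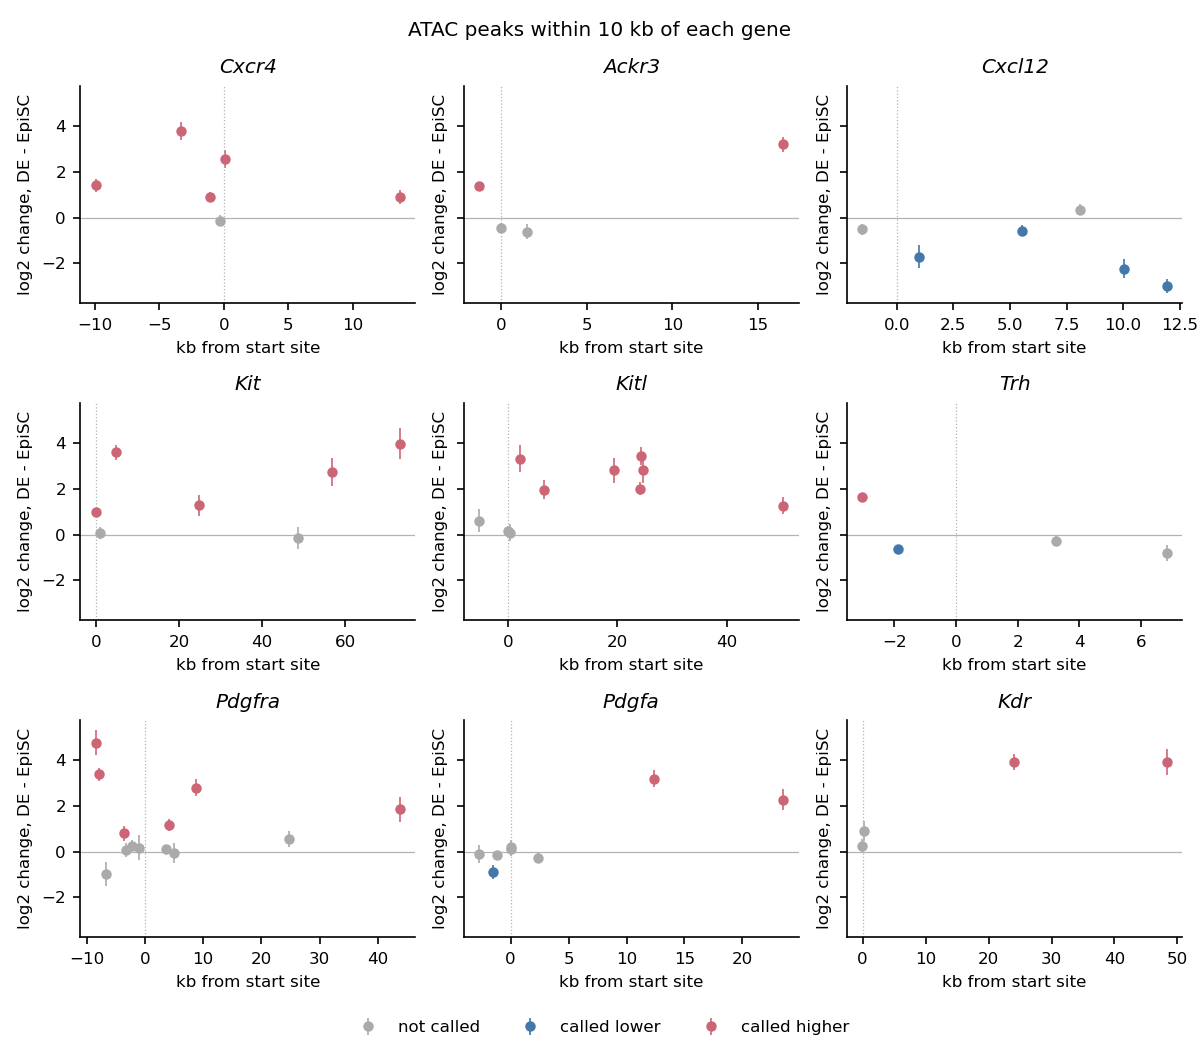
Log2 change of ATAC counts (B6 DE minus B6 EpiSC, with the SE as bars) of every tested peak within 10 kb of each gene, by distance of the peak's centre from the gene's start site in kb, positive in the direction of transcription. Of 36 called peaks 30 are higher, and 4 of the 6 lower ones are at Cxcl12.

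The interval from 50 kb before Pdgfra to 50 kb after Kdr on chromosome 5 held 85 peaks, of which 67 were tested, 44 rose and 5 fell at the threshold, and the median log2 change was 2.11, beside 32.6% higher, 25.0% lower and a median of -0.01 among all peaks tested. Outside the 3 genes, 35 of 50 tested peaks were called higher and 5 lower. The stretch between Pdgfra and Kit held the most, with 20 of 25 tested peaks called higher and 2 lower, and that between Kit and Kdr had 6 of 10 higher and 2 lower. The tested peak with the largest rise, named after its values were seen, lay between Pdgfra and Kit, 171 kb before Kit (chr5:75403391-75403592). It was at 0 to 0.255 CPM in EpiSC and 5.87 to 7.50 CPM in DE (log2 change 6.11, SE 0.62, adjusted p = 7.87e-08). With EpiSC values so near 0, this size depends on the prior count and is no bound. As the largest rise among the 67 tested peaks, it is also high by selection. The steepest loss, picked in the same way, lay 261 kb before Kit and went from 3.32 to 10.1 CPM to 0 to 0.859 CPM (-3.87). Within this interval Pdgfra and Kit transcripts rose and Kdr transcript fell.

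**Figure D4:**
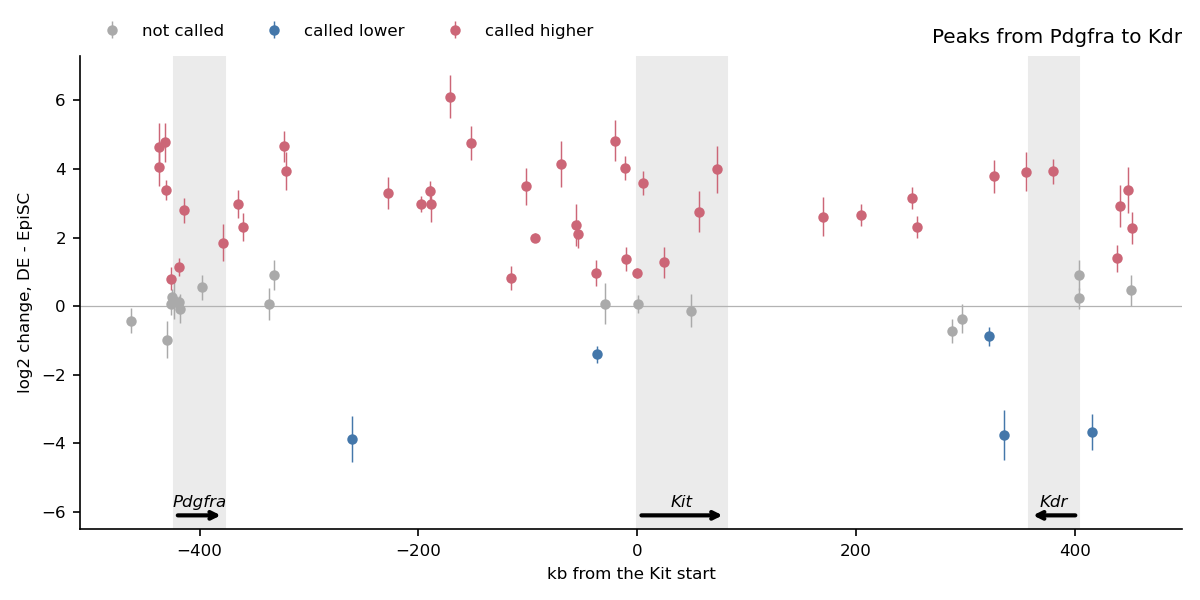
Log2 change (B6 DE minus B6 EpiSC, with the SE as bars) of the 67 tested peaks from 50 kb before Pdgfra to 50 kb after Kdr, by distance from the Kit start in kb; shading marks the genes and arrows their direction of transcription. Of these, 44 were called higher and 5 lower, and peaks called higher lie along the whole interval.

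Among EpiSC of other strains, 2 of the 9 members were called against B6 in PWK, Trh lower and Kitl higher, while 26.5% of the 14822 genes tested were called (1781 higher and 2142 lower; 2226 and 1708 with total library size as the scale). CPM values from here on are on the scale of the EpiSC table. Trh was 83.2, 392, 310.1, 1137 and 489.7 CPM in B6 replicates 1, 2, 4, 44 and 51, and 34.3, 38.2 and 31.2 CPM in PWK BioRep698, BioRep695 and the unnumbered PWK library. All PWK libraries lay below all B6 libraries (log2 change -3.80, SE 0.78, adjusted p = 0.0055), and leaving out any 1 library kept the adjusted p between 0.00098 and 0.030, with a log2 change of -3.20 without B6 replicate 44. The B6129F1 libraries had 177, 471 and 581 CPM and the DBA library 275, both inside the B6 range. None of the 5 tested peaks within 10 kb of Trh was called in PWK (2 of 17 within 50 kb were called, both lower), and the most accessible of them, 1.9 kb upstream, stood at 23.8 to 29.1 CPM in B6 and 18.7 and 30.3 CPM in PWK (log2 change -0.12, adjusted p = 0.84).

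Kitl was 1.74, 4.20, 3.30, 5.02 and 8.10 CPM in B6 replicates 1, 2, 4, 44 and 51 and 10.8, 11.8 and 8.91 CPM in PWK BioRep698, BioRep695 and the unnumbered library (log2 change 1.23, SE 0.37, adjusted p = 0.034). The feeder markers summed to 149.9, 1617, 649, 1579.6 and 3650.1 CPM in the same B6 libraries, to 3030.3 to 4170.2 in PWK, 242 to 341 in B6129F1 and 2118 in DBA, and Kitl was lowest in the B6 library with the lowest sum and highest among B6 in the one with the highest. The part of feeder RNA in the strain difference was not tested. The call was lost without B6 replicate 2 (adjusted p = 0.057), 4 (0.067) or 44 (0.055), without PWK BioRep698 (0.094), BioRep695 (0.11) or the unnumbered library (0.065), and in a fit of these 2 groups alone (0.063), with log2 changes from 1.14 to 1.33.

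Cxcr4 was 29.7, 2.62, 21.8, 14.0 and 3.15 CPM in B6 replicates 1, 2, 4, 44 and 51, 3.41, 5.61 and 3.76 in PWK BioRep698, BioRep695 and the unnumbered library, 6.38, 11.6 and 18.2 in B6129F1 4, 9 and the unnumbered library, and 7.67 in DBA. By mean the order was B6, B6129F1, DBA, PWK; the values of B6129F1, DBA and PWK all lay within the B6 range, and the single DBA library lay above the PWK libraries with no test. PWK was not called against B6 (log2 change -1.74, SE 0.78, adjusted p = 0.12), though it was by DESeq2 (-1.73, adjusted p = 0.035). Cxcl12 was highest in PWK by mean, with 36.3 ± 1.18 CPM in PWK (SD, n = 3), 27.7 in DBA, 14.3 ± 15.6 in B6 (n = 5) and 6.09 ± 2.73 in B6129F1 (n = 3). It was not called in PWK (log2 change 1.34, adjusted p = 0.21) but was without B6 replicate 51 (2.18, adjusted p = 0.020). The 6 libraries with the most Cxcl12, B6 replicates 2 and 51, the 3 PWK and the DBA library, had 2.62 to 7.67 CPM of Cxcr4 and feeder sums of 1617 to 4170.2 CPM.

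**Figure D5:**
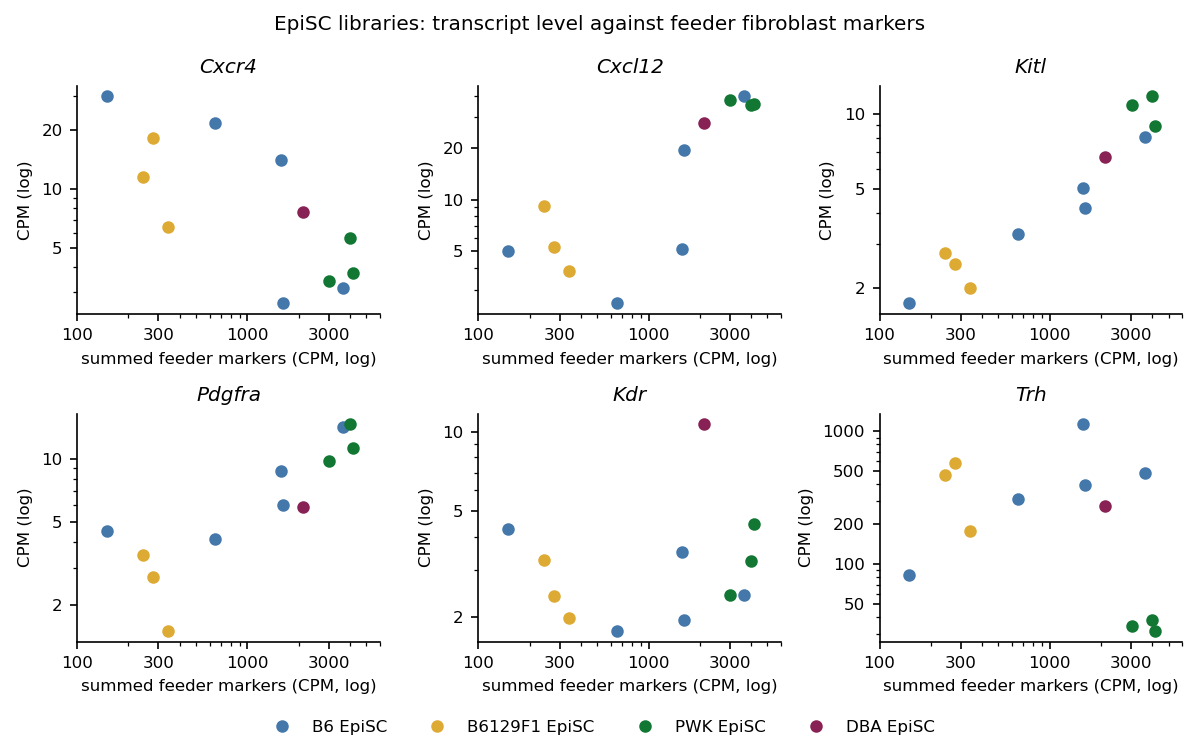
Transcript level in CPM of 6 of the genes (log axis) against the summed CPM of 15 feeder fibroblast markers (log axis) in the 12 EpiSC libraries of 4 strains (points, 1 per library). Kitl, Cxcl12 and Pdgfra are highest in the 4 libraries with the highest feeder sums (B6 replicate 51 and the PWK libraries), Kdr stands out in the DBA library and Trh is low in the 3 PWK libraries.

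Pdgfra was 4.50, 5.98, 4.11, 8.70 and 14.2 CPM in B6 replicates 1, 2, 4, 44 and 51, 9.72, 14.6 and 11.2 in PWK BioRep698, BioRep695 and the unnumbered library, 1.49, 3.44 and 2.71 in B6129F1 4, 9 and the unnumbered library, and 5.85 in DBA. The B6129F1 libraries, with feeder sums of 242 to 341 CPM, lay below all B6 libraries without passing the threshold (log2 change -1.56, SE 0.44, adjusted p = 0.078); DESeq2 called it (-1.55, adjusted p = 0.0055), as did the fit without B6 replicate 1 (-1.65, adjusted p = 0.035). PWK was not called (0.66, adjusted p = 0.25) but was without B6 replicate 51 (1.02, adjusted p = 0.037). In B6129F1, edgeR called none of the 9 members (2.84% of all genes, or 421, were called, 0 without the unnumbered B6129F1 library and 1952 without B6 replicate 1), 1 had an unadjusted p under 0.05, and DESeq2 called 1, Pdgfra. Kit, Ackr3 and Pdgfa were not called in either strain, at 19.6 to 58.0, 1.34 to 8.08 and 3.04 to 7.59 CPM over the 12 libraries.

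Of the pathway lists in PWK, 2 of 15 tested CXCL12 axis genes were called higher and 3 lower, 3 of 17 KIT pathway genes higher, 1 of 7 PDGF genes higher, 2 of 11 VEGF genes higher and 1 lower, 2 of 6 TRH system genes lower, and 1 of 12 other surface genes higher and 1 lower, where 26.5% of all genes were called. Pdgfc rose by 1.03 on the log2 scale (4.99 to 7.48 CPM in B6, 11.8 to 13.2 in PWK, adjusted p = 0.0013) and Nrp2 by 1.43 (adjusted p = 0.0068), while Vegfa fell by 0.56 (adjusted p = 0.017) and Podxl, a sialomucin of the cell surface, by 1.04 (adjusted p = 0.023). Nrp1 rose by 1.35 (adjusted p = 0.035), a call lost without B6 replicate 2, 4 or 44 or any 1 PWK library (adjusted p = 0.063 to 0.090). Igfbp5 was 23.2 to 149 CPM in B6, 222 to 424 in PWK (log2 change 2.03) and 9.12 to 10.3 in B6129F1 (-3.17), beside feeder sums of 3030.3 to 4170.2 CPM in PWK and 242 to 341 in B6129F1, whose part in this was not tested. In B6129F1, 3 list genes were called, all lower: 1 each of the CXCL12 axis, the VEGF family (Nrp1, -2.18) and the other surface genes (Igfbp5). No gene was called without the unnumbered B6129F1 library or with only these 2 groups fitted, so these 3 calls were lost there.

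Kdr was 1.76 to 4.47 CPM in the 11 EpiSC libraries of B6, PWK and B6129F1 and 10.7 CPM (283 counts) in the DBA library. The log2 ratio of DBA to the B6 mean was 1.94, and that of Ackr3 was 1.06 (8.08 against 1.34 to 7.58 CPM in B6). These 2 of 9 members were past 2-fold, as were 7.99% of all genes compared, and with 1 DBA library there is no replicate check. Among peaks near the members, 6 of 51 compared were past 2-fold in DBA, 3 higher and 3 lower, against 21.1% of all peaks compared.

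In PWK, 1 of 59 tested member peaks was called, against 5.11% of all 137667 peaks tested. It lay 8.1 kb into Cxcl12 (chr6:117176533-117176704) and had 7.71, 7.79, 6.10 and 9.20 CPM in B6 replicates 1, 4, 44 and 51, 9.91 in DBA, and 1.60 and 1.13 in PWK BioRep698 and the unnumbered PWK library. The lower count in PWK (log2 change -2.52, adjusted p = 0.0034) stood beside a Cxcl12 transcript level of 35.3 to 37.6 CPM in PWK. Of all peaks called in PWK, 1957 were higher and 5073 lower. The part of sequence differences between PWK and the mm10 genome in these counts was not tested. The Cxcr4 peaks 0.3, 1.1 and 9.9 kb upstream changed by -0.03, -0.32 and 0.02 on the log2 scale in PWK. One 13.7 kb from the start, beyond the gene's end, changed by -0.99 (adjusted p = 0.36), and none of these was called. The Cxcr4 peaks 3.3 kb upstream and just inside the start site, which rose in DE, had no overlapping peak in the EpiSC peak table.

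Over the 12 EpiSC libraries, the 5 genes most like Cxcr4 by Pearson's r of log2 CPM, among 9529 genes with a mean log2 CPM of at least 3, were Hhex (0.94), Greb1l (0.94), Lrig3 (0.94), Shisa2 (0.94) and Fzd5 (0.93). Hhex encodes a transcription factor of anterior endoderm and ranged from 4.26 to 27.7 CPM in B6 EpiSC. The most alike of the others were Znfx1 for Cxcl12 (0.98), Ttc8 for Ackr3 (0.90), Fam210b for Kit (0.92), St3gal2 for Kitl (0.98), Nxn for Pdgfra (0.96), Crtc1 for Pdgfa (0.96), Slc35b1 for Kdr (0.85) and Fance for Trh (0.95). These values describe 12 libraries that share strain and culture in part, and the highest of 9529 correlations is high by selection.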

How the data were processed

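RNA-seq and ATAC-seq tables of raw counts were analysed as deposited by the authors, 29555 genes in each of 2 gene tables and 158917 and 181059 peaks in 2 peak tables. The submitters' processing notes name mm10, fastp, Salmon, featureCounts, Bowtie2, MACS2 and DESeq2; which program gave which counts, and whether peak starts count from 0 or 1, are not given in the sources used here. Peak coordinates are as in the deposited tables, and genes and promoters are from RefSeq (GRCm38.p6), where 43.0% of promoter windows overlapped a peak of the table with endoderm (4.36% when shifted).

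Of 30 samples, 27 libraries had columns. Most were matched to a sample by name; 3 columns (1 PWK and 1 B6129F1 in RNA, 1 PWK in ATAC) named only a strain, entered as unnumbered libraries of their group, and the unnumbered PWK libraries of RNA and ATAC carry different names. The 3 PWK endoderm samples were not analysed here, and 17 columns of the EpiSC peak table that matched no sample were not used. Groups were compared with edgeR 4.0.16 (R 4.3.3; TMM scaling, filterByExpr, robust quasi-likelihood test, Benjamini-Hochberg adjustment over all features, threshold 0.05), tested on simulated data. DESeq2 1.42.0, other scalings and filters, leaving out libraries, other distances and a replicate block were the alternatives. Comparisons with the single DBA library have no test and use a 2-fold size and a mean of at least 1 CPM. CPM are counts per 1000000 of the library's total after TMM scaling, set separately in each table, so values of a library differ slightly between tables.

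The members and gene lists were chosen with earlier results of these data known. All members are named; list genes are named if called with a log2 change over 1 and a mean log2 CPM of at least 3 (at most 5 a list and direction), with the other receptors and ligands of each family. Named peaks are the one with the smallest p for each member, those over a promoter window, and up to 3 more called peaks by size; other peaks were named after their values were seen.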

Additional observations from a re-analysis of the deposited data

Results flagged for a closer look

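Of 92 groups of 4 or 5 values checked (members' transcripts and named peaks by group), 8 held 1 library whose gap to the nearest other exceeded Dixon's critical value, and chance flags about 1 group in 20. Among transcripts in DE, Pdgfa stood at 32.5 CPM in replicate 2 (the others at 15.6 to 17.3), and Kdr at 0.199 CPM in replicate 4 (the others at 0). Among peaks in DE, the one 13.6 kb from the Cxcr4 start had a lowest value of 7.87 CPM (others 9.06 to 9.22), the Cxcl12 peak 1.0 kb into the gene 0 (others 1.65 to 1.97), the Kit peak 73.2 kb into the gene a highest value of 3.43 (others 2.30 to 2.47), and the Trh peak 3.0 kb upstream a lowest value of 24.7 in replicate 4 (others 40.1 to 42.4). Among peaks in EpiSC, the Cxcl12 peak 11.9 kb into the gene reached 27.1 CPM in replicate 51 (others 16.6 to 17.8), and the Kitl peak 24.4 kb into the gene 2.10 CPM in replicate 4 (others 0.465 to 0.640).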

How the results depend on the processing

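In DE against EpiSC, none of the 18 named transcripts changed direction in 306 refits, and 298 of these kept their side of the threshold; for 37 named peaks, 474 of 518 refits kept both, 24 lost the call, 6 gained it and 14 changed sign. Replicate numbers were not taken to pair libraries: same-numbered EpiSC and DE deviations correlated at 0.07 to 0.19 in RNA and -0.01 to 0.05 in ATAC. A replicate block on the libraries with shared numbers called 8 members (8 without it), 29 member peaks (30 without) and 45 interval peaks (45 without); with the block the Cxcl12 peak 1.0 kb into the gene was not called (-1.80, adjusted p = 0.084). With peaks within 50 kb, 76 of 116 tested were called. Called changes of low peaks moved without EpiSC replicate 4, to 4.44 for the Cxcr4 peak 3.3 kb upstream, 4.30, 3.81 and 3.89 for the Kitl peaks 24.4, 24.6 and 19.4 kb in, 3.06 for the Pdgfa peak past the gene's end and 4.69 for the Kdr peak 24.0 kb in, and without EpiSC replicate 51, to 2.19 and 2.18 for the Kitl peaks 24.6 and 19.4 kb in and 3.31 for the Kdr peak 48.3 kb from the start.

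In PWK, 1 member was called with only the 2 groups fitted and 1 to 4 when 1 library was left out (2 in the report), with 2446 to 4904 of all genes called (3923); member peaks called numbered 2 with total library size and 1 to 2 with 1 library left out (1 in the report), with 3371 to 6781 of all peaks (7030). In B6129F1, 1 member was called by DESeq2 and 0 to 2 with 1 library left out (0 in the report); all genes called went from 421 to 2007 by DESeq2, 0 with only the 2 groups fitted (2770 at an unadjusted p under 0.05 in edgeR), and 0 to 1952 with 1 library left out, lowest without the unnumbered B6129F1 library and highest without B6 replicate 1. The cause was not tested.

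Signs changed only for uncalled values in these fits. With 1 library left out, log2 changes ran from -0.0228 to 0.379 for Kit in PWK, and in B6129F1 from -0.67 to 0.24 for Cxcr4, -0.42 to 0.37 for Ackr3, -0.34 to 0.14 for Kit, -0.35 to 0.12 for Kdr and -0.57 to 0.36 for Trh. For start-site peaks in DE they ran from -0.10 to 0.20 for Kitl, and from -0.15 to 0.34 and -0.21 to 0.12 for the 2 Pdgfa peaks; total library size gave -0.0542 for Kitl and -0.0347 and -0.118 for Pdgfa. With the shared-number libraries, the Cxcr4 peak 0.3 kb upstream was 0.0357 with the replicate block and 0.0225 without it, and the Kitl start-site peak -0.0325 with it and -0.0348 without it.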
